A study of Homo sapiens with 6 samples.

Results

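Interferon-stimulated genes are the genes that cells switch on when interferon binds its receptor. The group described here holds 40 named genes, taken by symbol: antiviral effectors, RNA sensors and the transcription factors that drive them. All 40 were found among the 35639 genes of the deposited table. The data are bulk RNA-seq of hFOB 1.19, an established osteoblastic line of human fetal origin that carries a temperature-sensitive SV40 large T antigen. An EV, an H3.3-WT and an H3.3-G34W line were compared, with 2 libraries each. EV received the pHIV-dTomato lentiviral vector with no insert. H3.3-WT received that vector with a cDNA for HA-tagged Drosophila histone H3.3, and H3.3-G34W received the same cDNA with the G34W substitution of glycine by tryptophan. In both histone lines the cDNA was added on top of the cells' own H3.3 genes. All lines, EV included, were infected with lentivirus, sorted as pools for dTomato, kept at 34 °C and collected 15 days after transduction. No untransduced library is analysed here, so a response to the transduction cannot be told apart from the level that these cells have without it.

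Interferons are secreted proteins that are made when a cell senses viral nucleic acid, often in the cytoplasm. Type I interferons such as interferon beta bind a receptor made of IFNAR1 and IFNAR2, whose kinases JAK1 and TYK2 activate STAT2. A complex that holds STAT2 and IRF9 then binds a DNA element called the ISRE and raises the genes described here, several of which sense RNA themselves and so feed back on the pathway.

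Values are normalised estimated counts, which are comparable between libraries for 1 gene. Their read depth is unknown, and a level is compared between genes only per kilobase of transcript. Groups follow the library titles, whose names the columns of the deposited table carry too. The labels also carry a genotype entry, which swaps these names between the histone lines, and every direction between them would reverse under it. EV replicate 1 was listed at 0 for 28688 genes, 21 of the members among them, and was left out, so that EV is EV replicate 2 unless stated. Fold changes are on the log2(value + 1) scale, tested with limma among the 16259 genes with a mean of at least 10 over the 5 libraries used. All 40 members passed this filter. The lone EV library was assumed to vary like the others. The cells were collected in duplicate. The methods describe replicates in general as biological ones, meaning separate wells within 1 experiment, and do not describe these duplicates in particular. The p-values therefore measure only the spread between these libraries, and how much of it is technical is not known. H3.3-G34W replicate 1 stood apart from the other libraries in genes of pluripotent cells (values below), and medians and the largest fold changes that use it are given with and without it.

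The interferon-stimulated genes were well above 0 in all 5 libraries, with EV no exception. For each of them the libraries of at least 1 histone line differed more than the means of the histone lines did. The same held for 85.0% of all genes tested. The values of the members summed to 462849 in EV, 373080 and 544760 in H3.3-WT replicates 1 and 2, and 281922 and 570582 in H3.3-G34W replicates 1 and 2. This was 1.10% of all values in EV, 0.915% and 1.13% in H3.3-WT, and 0.726% and 1.28% in H3.3-G34W. H3.3-G34W replicate 1 was the lowest library for 37 of the 40 members, against 40.1% of all genes tested. H3.3-G34W replicate 2 was the highest library for 20 members and H3.3-WT replicate 2 for 18, against 19.7% and 30.8% of all genes. Per kilobase of the canonical transcript and averaged over the 5 libraries, 19 of the members stood above the 90th percentile of the tested genes and 2 below the 50th. ISG15 stood at the 99.9th percentile per kilobase and IFI6 at the 99.9th, while CXCL10 stood at the 30.7th and CXCL11 at the 48.2nd. The median percentile of the members was 90.6 in EV, 89.3 and 90.8 in H3.3-WT, and 85.2 and 91.3 in H3.3-G34W.

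**Figure D1:**
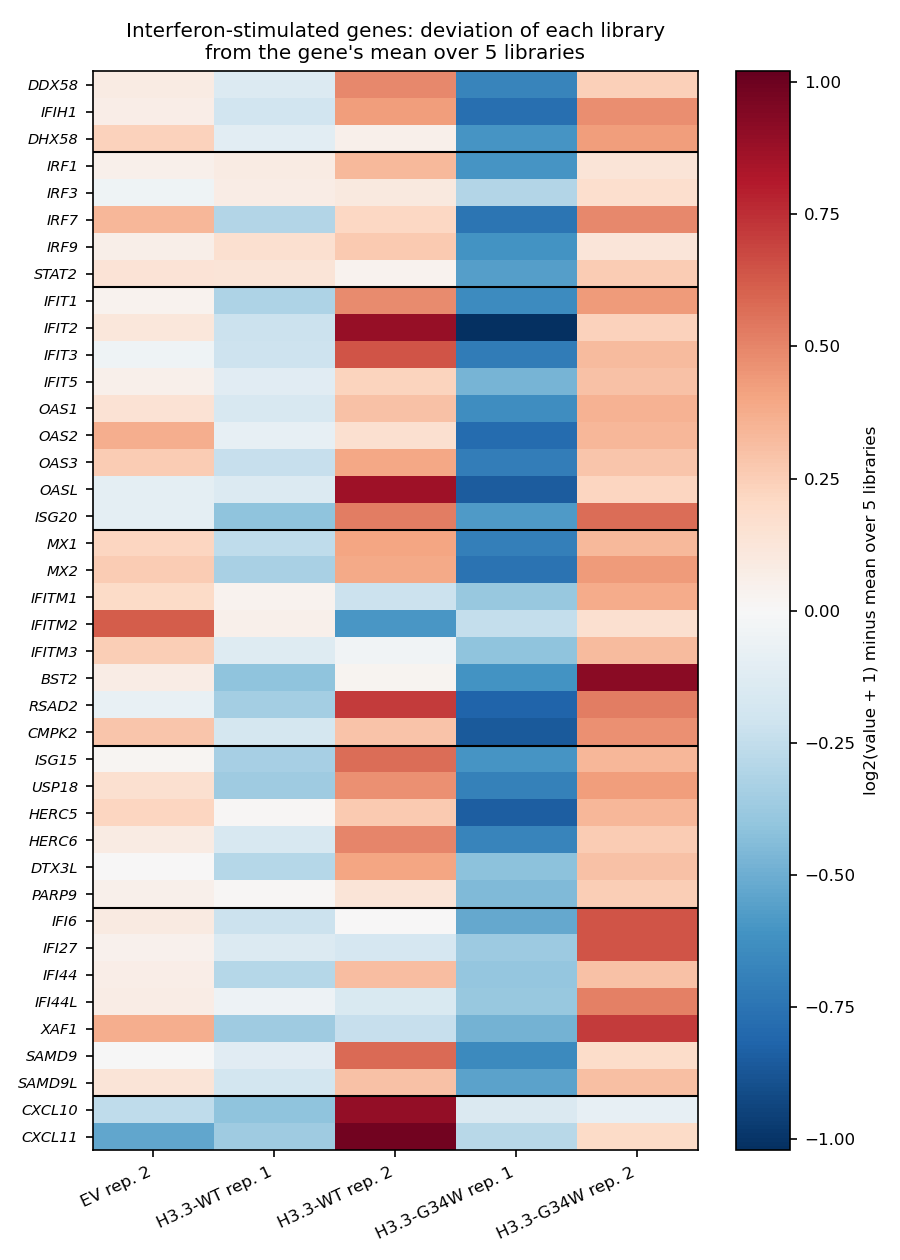
Deviation of each library (columns) from a gene's mean over 5 libraries, as log2(value + 1), for the 40 members (rows), with lines between groups of role: RNA sensors, transcription factors, RNA-binding and RNA-degrading effectors, GTPases and membrane factors, ISG15 conjugation, other induced genes and chemokines. H3.3-G34W replicate 1 is the lowest library in 37 of the 40 rows.

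The promoters of the members were searched for the ISRE. The search took the letters GAAA, then 2 bases of any kind, then GAAA again, or TTTC in the same arrangement on the other strand. No other motif was searched. RefSeq promoters on GRCh38.p14, from 250 bases before to 50 after each start, were found for 31 of the 40 members (DDX58 under its current symbol RIGI). IFIT2, IFITM2, IRF3, IRF7, MX2, OAS2, OASL, DHX58 and USP18 had none. The letters were in at least 1 promoter of 21 of the 31 genes and in 25 of their 41 promoters (61.0%). Of all 35116 promoters of this length, 1255 (3.57%) held them. The members were chosen as interferon-stimulated genes, so this difference describes the list and not these libraries. Among the sensors IFIH1 held them and DDX58 did not, and of the transcription factors with a promoter, IRF1, IRF9 and STAT2, none did. An ISRE with other letters, or outside the bases searched, would be missed. The stretches below come from 7 effector, membrane, conjugation and chemokine genes that held the letters, among them the most and the least abundant member per kilobase (ISG15 and CXCL10), and capitals mark the matches. They lie at chr1:1013369-1013414 (plus strand) for ISG15, chr10:89392492-89392544 (plus) for IFIT1, chr10:89327826-89327899 (plus) for IFIT3, chr1:27672261-27672363 (minus) for IFI6, chr11:320871-320927 (minus) for IFITM3, chr19:17405730-17405775 (minus) for BST2 and chr4:76023694-76023733 (minus) for CXCL10. All end before the gene's start.
ISG15: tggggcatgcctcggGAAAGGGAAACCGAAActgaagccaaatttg
IFIT1: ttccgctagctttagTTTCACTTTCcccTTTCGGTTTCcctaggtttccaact
IFIT3: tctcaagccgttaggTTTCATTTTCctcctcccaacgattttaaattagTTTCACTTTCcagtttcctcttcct
IFI6: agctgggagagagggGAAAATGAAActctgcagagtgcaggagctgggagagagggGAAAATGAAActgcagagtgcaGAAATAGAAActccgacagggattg
IFITM3: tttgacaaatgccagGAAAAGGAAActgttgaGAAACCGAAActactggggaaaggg
BST2: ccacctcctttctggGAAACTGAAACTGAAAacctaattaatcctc
CXCL10: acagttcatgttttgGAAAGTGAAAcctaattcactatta
ISG15 and BST2 each held 2 overlapping matches, IFIT1, IFIT3 and IFITM3 held 2 separate ones and IFI6 held 3. CXCL10 held 1, farther from the start than those of the others. Its match began 221 bases before the start. The first match began 156 bases before the start for IFIT3 and IFI6, and 130 for BST2. For IFIT1, ISG15 and IFITM3 it began 116, 113 and 52 bases before. The median difference between H3.3-G34W replicates 2 and 1 was 0.99 on the log2 scale for the 21 genes with the letters and 0.88 for the 10 without. Between H3.3-WT replicates 2 and 1 it was 0.62 and 0.47.

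Setting the H3.3-G34W line against H3.3-WT asks whether the mutant histone differs from the same histone without the mutation. No member passed the test: 0 of 40 had an adjusted p under 0.05 in limma, against 0 of 16259 genes (0%). At an unadjusted p under 0.05 limma gave 0 members, against 439 genes (2.70%). With same-numbered libraries as a replicate block the unadjusted count from limma was 4 members, against 4.40% of genes, and IFIT2 came first among them. Members past the adjusted threshold stayed at 0 in every other setting, and leaving out each library in turn gave 0 to 6 genes. The median log2 fold change of the members was -0.20, with 32 of 40 below 0, beside a median of -0.06 and 56.9% below 0 over all genes tested. A p that misses the threshold does not show that values did not differ. The direction rested on single libraries. Without H3.3-G34W replicate 1 the median was 0.27 and 7 members were below 0. Without H3.3-G34W replicate 2 it was -0.70 and 39 were below 0. Without H3.3-WT replicate 1 it was -0.50, and without H3.3-WT replicate 2 it was 0.04. In this order, 3, 6, 2 and 0 members had an unadjusted p under 0.05 in limma, against 1.62%, 9.18%, 3.38% and 1.72% of all genes. Over all genes the median was 0.04 without H3.3-G34W replicate 1 and -0.17 without H3.3-G34W replicate 2. With 2 libraries a side, the smallest two-sided p that exact permutation allows is 0.333. The range of the H3.3-G34W libraries overlapped that of the H3.3-WT libraries for 39 members. For 1 member, IRF9, each mutant library was under each H3.3-WT library (background 14.7% of all genes), and for 0 members each was over each (background 11.6%). H3.3-G34W replicate 2 alone, looked at only once the data were known, lay above both H3.3-WT libraries for 22 members (background 31.8%) and below both for 1 (background 23.2%).

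The gap between replicates set the scale of these values. H3.3-G34W replicate 2 was above replicate 1 for 40 of the 40 members, against 65.4% of all genes, with a median difference of 0.99 on the log2 scale (0.21 over all genes). H3.3-WT replicate 2 was above replicate 1 for 35 members, against 58.7% of all genes, with a median difference of 0.50 (0.11 over all genes). The exceptions were IFI27, IFI44L, IFITM1, IFITM2 and STAT2. The difference between the group means was smaller than the larger of the replicate gaps for 40 of 40 members, as it was for 85.0% of all genes. It was smaller than the H3.3-G34W gap for 39 members (70.0% of all genes) and than the H3.3-WT gap for 30 (62.1%), with HERC5, IFI27, IFI44L, IRF1, IRF3, IRF9, OAS2, PARP9, STAT2 and XAF1 the exceptions to the latter.

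**Figure D2:**
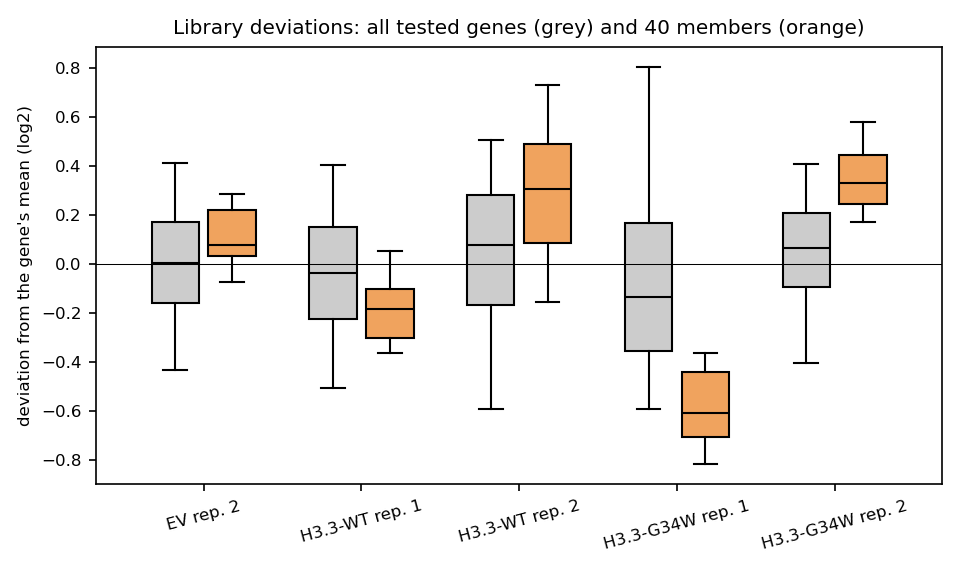
Deviation of each of 5 libraries from a gene's mean, on the log2 scale, for all 16259 genes tested (grey) and the 40 members (orange). Lines are medians, boxes span the 25th to 75th and whiskers the 10th to 90th percentile; the members' median is lowest in H3.3-G34W replicate 1 (-0.61) and highest in H3.3-G34W replicate 2 (0.33).

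The RNA sensors DDX58 (RIG-I), IFIH1 (MDA5) and DHX58 (LGP2) are helicases that recognise viral RNA in the cytoplasm; LGP2 modulates the signal of the others. DDX58 had 10188 in EV, 8749 and 13512 in H3.3-WT, then 6057 and 11410.2 in H3.3-G34W. IFIH1 was at 5233 in EV, at 4381 and 6715 in H3.3-WT and at 2932 and 6951 in H3.3-G34W. The values of DHX58 were 2341 (EV), 1847 and 2063 (H3.3-WT), and 1309 and 2674 (H3.3-G34W). All of these were lowest in H3.3-G34W replicate 1, and the ranges of the lines overlapped for each. The median of these 3 differences between lines was -0.26, with all below 0; without H3.3-G34W replicate 1 the differences were 0.07 for DDX58, 0.36 for IFIH1 and 0.45 for DHX58.

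Among the transcription factors, STAT2 and IRF9 are subunits of the complex that binds the ISRE, IRF3 is activated by the sensors and drives the interferon beta gene, IRF7 amplifies that output, and IRF1 responds mainly to interferon gamma. STAT2 had 10575 in EV, with 10515 and 9860.4 for H3.3-WT against 6495 and 11479.7 for H3.3-G34W. IRF9 had 1623 in EV, 1748 and 1879.7 in H3.3-WT, then 1022 and 1701 in H3.3-G34W. IRF1 was at 6597 in EV, at 6764 and 8036 in H3.3-WT and at 4205 and 6989 in H3.3-G34W. H3.3-G34W replicate 1 was lowest for each, and the lines overlapped for STAT2 and IRF1. IRF9 was the 1 member without overlap between these lines, and its log2 fold change was -0.46 (standard error 0.31, adjusted p = 0.9998 from limma). That of IRF1 was -0.44 (standard error 0.29, adjusted p = 0.9998 from limma). Most of both rested on H3.3-G34W replicate 1: without it they were -0.09 for IRF9 and -0.08 for IRF1, and without H3.3-G34W replicate 2 they were -0.83 and -0.81. The values of IRF7 were 2504 (EV), 1609 and 2291 (H3.3-WT), and 1178 and 2778 (H3.3-G34W). IRF3 had 4275 in EV, with 4643 and 4725 for H3.3-WT against 3584 and 4967 for H3.3-G34W. IRF3 had the narrowest spread of the group, with a highest value 1.39 times the lowest, and IRF7 spread 2.36 times.

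The IFIT proteins bind viral RNA ends or block its translation. IFIT1 had 16526 in EV, 12974 and 22567 in H3.3-WT, then 10356 and 21756 in H3.3-G34W. IFIT2 was at 8211 in EV, at 6491 and 14001 in H3.3-WT and at 3725 and 8875 in H3.3-G34W. The values of IFIT3 were 20435 (EV), 18159 and 32858 (H3.3-WT), and 12804 and 26368 (H3.3-G34W). IFIT2 had the widest spread of any member, with H3.3-WT replicate 2 at 3.76 times H3.3-G34W replicate 1, and the largest fold change of the comparison, -0.73 (standard error 0.46, adjusted p = 0.9998 from limma). Without H3.3-G34W replicate 1 it was -0.10, and without H3.3-G34W replicate 2 it was -1.36. It was -1.28 without H3.3-WT replicate 1 and -0.17 without H3.3-WT replicate 2. IFIT5 had 4419 in EV, with 3929.6 and 4999 for H3.3-WT against 3074 and 5254 for H3.3-G34W. It varied less than the other IFIT genes beside it on chromosome 10. The 2'-5'-oligoadenylate synthetases OAS1, OAS2 and OAS3 make the second messenger that activates RNase L. OAS1 had 11799.8 in EV, 9521 and 13154 in H3.3-WT, then 6871 and 13671 in H3.3-G34W. OAS2 was at 8833 in EV, at 6450.4 and 7650.2 in H3.3-WT and at 3966 and 8659.7 in H3.3-G34W. The values of OAS3 were 21535 (EV), 15299 and 23638 (H3.3-WT), and 11016 and 21925 (H3.3-G34W). All OAS genes were lowest in H3.3-G34W replicate 1, and OAS2 was highest in EV, though by less than its spread between the H3.3-G34W libraries. OASL, a related protein without synthetase activity that enhances RIG-I signalling, and ISG20, an RNA exonuclease, stood higher in H3.3-WT replicate 2 than in H3.3-WT replicate 1. OASL had 9075 in EV, with 8805 and 17629 for H3.3-WT against 5398 and 11302 for H3.3-G34W. ISG20 had 2814 in EV, 2267 and 4328 in H3.3-WT, then 2019 and 4493 in H3.3-G34W. The log2 fold change of OASL was -0.67 (standard error 0.42, adjusted p = 0.9998 from limma), and -0.14 without H3.3-G34W replicate 1. It was -1.21 without H3.3-G34W replicate 2, -1.17 without H3.3-WT replicate 1 and -0.17 without H3.3-WT replicate 2.

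MX1 and MX2 are dynamin-like GTPases that trap viral nucleocapsids, and MX2 acts on retroviruses. MX1 was at 56274 in EV, at 40321 and 63742 in H3.3-WT and at 29734 and 60747 in H3.3-G34W. The values of MX2 were 7775 (EV), 5162 and 8455 (H3.3-WT), and 3848 and 8773 (H3.3-G34W). Both were lowest in H3.3-G34W replicate 1. The IFITM proteins block the fusion of viral envelopes with cell membranes, and their genes lie together on chromosome 11. IFITM1 had 10135 in EV, with 9066 and 7605 for H3.3-WT against 6783 and 11536 for H3.3-G34W. IFITM2 had 2962 in EV, 1999.6 and 1279 in H3.3-WT, then 1632 and 2160.2 in H3.3-G34W. IFITM3 was at 13285 in EV, at 10165 and 10846 in H3.3-WT and at 8391 and 13961 in H3.3-G34W. Unlike most of the group, IFITM1 and IFITM2 were lower in H3.3-WT replicate 2 than in replicate 1, and IFITM2 was lowest there. IFITM2 and IFITM3 are near-identical copies between which estimated counts can be split, so the value of each is uncertain. BST2 (tetherin) holds budding virions at the cell surface, RSAD2 (viperin) makes a chain-terminating nucleotide, and CMPK2 is its neighbour and supplies nucleotides to it. The values of BST2 were 11169.6 (EV), 8010.1 and 10809.7 (H3.3-WT), and 6945 and 20134 (H3.3-G34W). RSAD2 had 6831 in EV, with 5643 and 11807 for H3.3-WT against 4081 and 10318 for H3.3-G34W. CMPK2 had 6534 in EV, 4753 and 6569 in H3.3-WT, then 2966 and 7444 in H3.3-G34W. BST2 had the largest gap between the H3.3-G34W libraries of any member, 1.54 on the log2 scale, with replicate 2 far above every other library. CMPK2 and RSAD2 overlap on chromosome 2, as PARP9 and DTX3L do on chromosome 3, and whether the counting used the strand is not given in the sources used here.

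ISG15 is a ubiquitin-like protein that HERC5 attaches to other proteins and USP18 removes; USP18 also dampens signalling at the interferon receptor. ISG15 was at 62008 in EV, at 48393 and 90789 in H3.3-WT and at 40276 and 77222 in H3.3-G34W. The values of USP18 were 8027 (EV), 5567 and 9872 (H3.3-WT), and 4429 and 9618 (H3.3-G34W). HERC5 had 9528 in EV, with 8251 and 9877 for H3.3-WT against 4578 and 10363 for H3.3-G34W. ISG15, the most abundant member per kilobase, was highest in H3.3-WT replicate 2 and lowest in H3.3-G34W replicate 1. HERC6 is the paralog of HERC5, and PARP9 and DTX3L form an ADP-ribosyltransferase and ubiquitin ligase pair transcribed from neighbouring starts. HERC6 had 6132 in EV, 5167 and 8178 in H3.3-WT, then 3623 and 6930.1 in H3.3-G34W. PARP9 was at 6728 in EV, at 6542 and 7105 in H3.3-WT and at 4730.4 and 7684 in H3.3-G34W. The values of DTX3L were 6866 (EV), 5617 and 9066 (H3.3-WT), and 5140.0 and 8446 (H3.3-G34W). The partners PARP9 and DTX3L were lowest in the same library, with a gap of 0.70 and 0.72 between the H3.3-G34W libraries on the log2 scale.

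IFI6 and IFI27 are small hydrophobic proteins of the endoplasmic reticulum and mitochondria, IFI6 being an inhibitor of flavivirus replication. IFI6 had 61362 in EV, with 49390.5 and 57607 for H3.3-WT against 40061 and 89562 for H3.3-G34W. IFI27 had 17689 in EV, 15637 and 15241 in H3.3-WT, then 13307 and 26862 in H3.3-G34W. Both were highest in H3.3-G34W replicate 2, above all other libraries, while the H3.3-WT libraries of IFI27 differed by -0.04 on the log2 scale. IFI44 and IFI44L are neighbouring paralogs on chromosome 1 whose products slow viral replication. IFI44 was at 5169.7 in EV, at 4039.7 and 6147 in H3.3-WT and at 3763 and 6087 in H3.3-G34W. The values of IFI44L were 6425 (EV), 5888 and 5482 (H3.3-WT), and 4667 and 8695 (H3.3-G34W). XAF1 had 1677 in EV, with 1007 and 1106 for H3.3-WT against 927 and 2133 for H3.3-G34W. All of these were lowest in H3.3-G34W replicate 1, and XAF1 and IFI44L were highest in H3.3-G34W replicate 2. XAF1 antagonises the apoptosis inhibitor XIAP; its fold change, 0.41 (standard error 0.38, adjusted p = 0.9998 from limma), was the largest above 0. It was 1.01 without H3.3-G34W replicate 1 and -0.19 without H3.3-G34W replicate 2. SAMD9 and its paralog SAMD9L restrict poxviruses and cell growth. SAMD9 had 6539.6 in EV, 6041 and 9778 in H3.3-WT, then 4176 and 7448 in H3.3-G34W. SAMD9L was at 2497 in EV, at 1999.8 and 2809.5 in H3.3-WT and at 1561 and 2820.2 in H3.3-G34W. The fold change of SAMD9 was -0.46 (standard error 0.34, adjusted p = 0.9998 from limma), and -0.05 without H3.3-G34W replicate 1. It was -0.88 without H3.3-G34W replicate 2, -0.81 without H3.3-WT replicate 1 and -0.12 without H3.3-WT replicate 2. Of the 7 genes in this paragraph, 3 were lower on average in H3.3-G34W, with a median difference of 0.17. Without H3.3-G34W replicate 1 only SAMD9 was, and the middle difference was that of IFI44L, 0.61.

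The chemokines CXCL10 and CXCL11 attract T cells and natural killer cells through the receptor CXCR3. The values of CXCL10 were 59.4 (EV), 53.3 and 133 (H3.3-WT), and 64.0 and 67.1 (H3.3-G34W). CXCL11 had 192 in EV, with 215 and 549 for H3.3-WT against 227 and 317 for H3.3-G34W. These were the least abundant members. H3.3-G34W replicate 1 was not lowest for either, as for IFITM2 and no other member, and H3.3-WT replicate 2 was highest for both. CXCL9, another ligand of CXCR3, was listed at 0 in all 5 libraries.

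**Figure D3:**
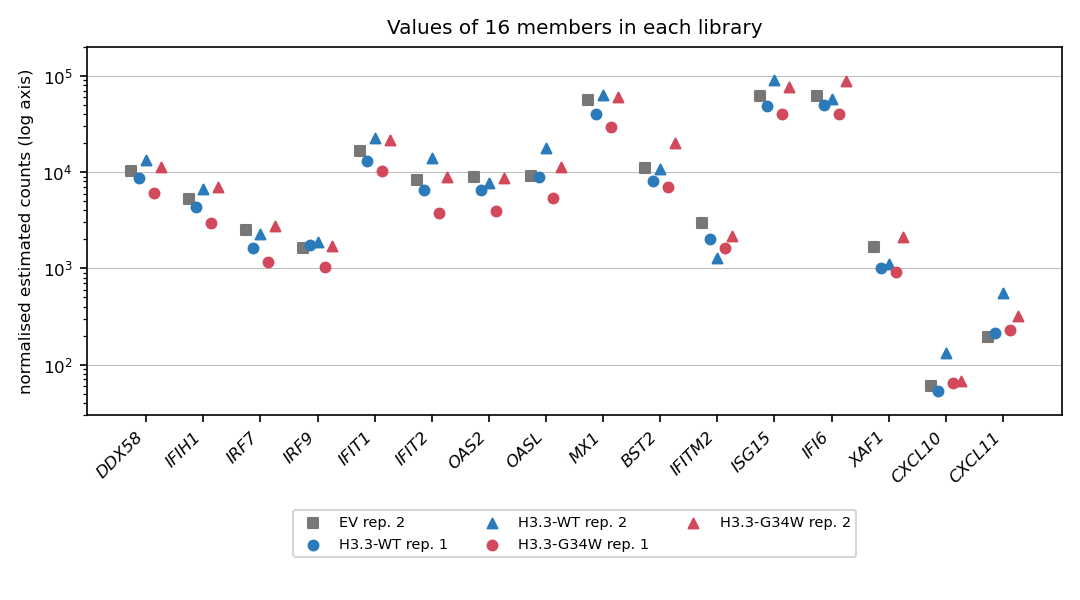
Normalised estimated counts (log axis) of 16 members in EV replicate 2 (squares), H3.3-WT (blue) and H3.3-G34W (red), with circles for replicate 1 and triangles for replicate 2. The red circle is the lowest point for each gene but IFITM2, CXCL10 and CXCL11, and the lines overlap for each gene but IRF9.

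**Figure D4:**
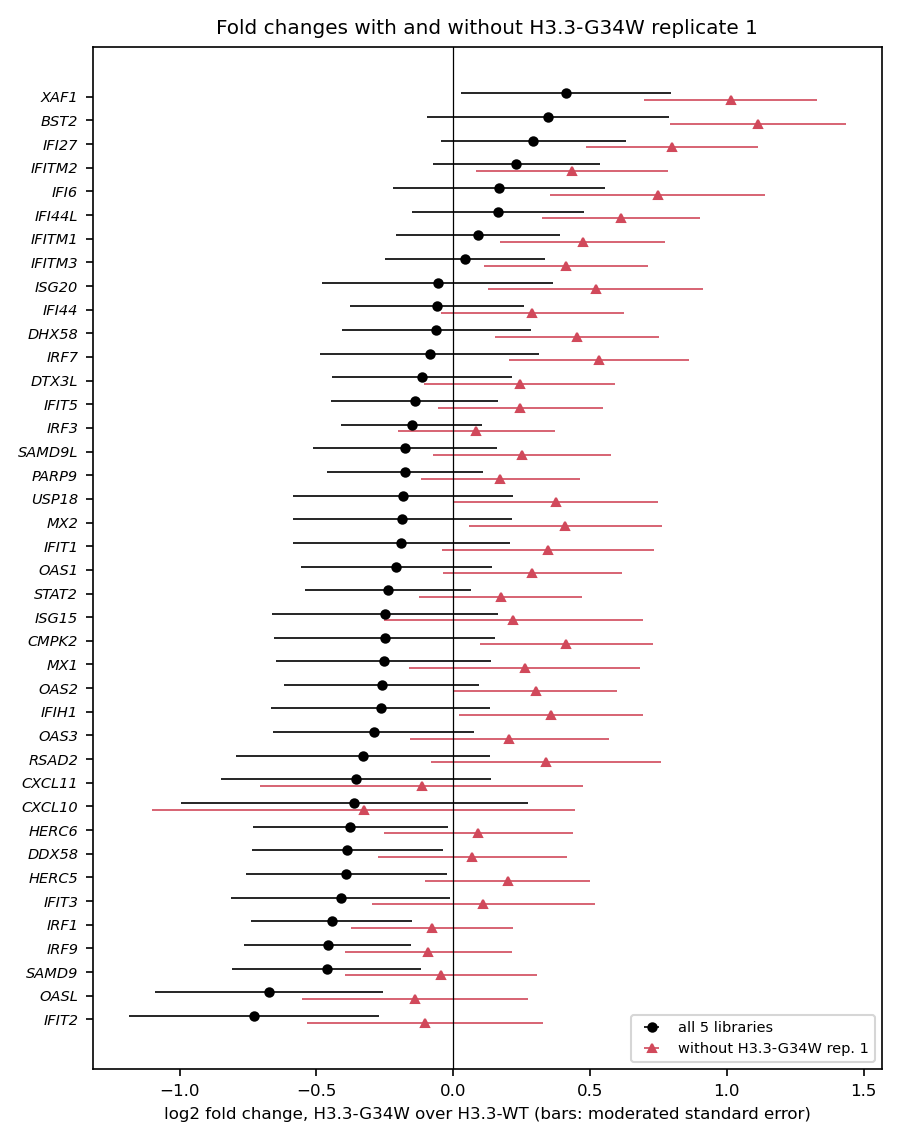
Log2 fold change of H3.3-G34W over H3.3-WT for the 40 members with all 5 libraries (black) and without H3.3-G34W replicate 1 (red); bars are moderated standard errors. With all libraries 32 members lie below 0, and without that library 7 do.

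The comparisons with EV ask what the overexpressed histones add to a line that carries the vector alone; both use the same EV library. EV lay inside the range of the 4 H3.3 libraries for 37 of the 40 members, against 70.7% of all genes. It was above all of them for IFITM2 and OAS2 and below all of them for CXCL11. Between H3.3-WT and EV, 0 members had an adjusted p under 0.05 in limma, against 0 of 16259 genes (0%), and 1 had an unadjusted p under 0.05, against 157 genes (0.966%). The median log2 fold change was -0.05, with 21 of 40 members below 0, and 0.02 over all genes. It was 0.17 without H3.3-WT replicate 1 and -0.30 without H3.3-WT replicate 2. Both H3.3-WT libraries lay below EV for 12 members (background 26.2%) and above it for 4 (background 29.6%). The 12 were BST2, DHX58, IFI27, IFI44L, IFI6, the IFITM genes, IRF7, OAS2, STAT2 and XAF1, and the 4 were CXCL11, IRF1, IRF3 and IRF9. The member at an unadjusted p under 0.05 was IFITM2, with a log2 fold change of -0.89 (standard error 0.37, unadjusted p = 0.0406 and adjusted p = 1 from limma). CXCL11 followed with 0.84 (standard error 0.60), XAF1 with -0.67 (0.47), CXCL10 with 0.50 (0.78), OASL with 0.46 (0.51) and IRF7 with -0.38 (0.49). Without H3.3-WT replicate 2, CXCL11 was at 0.16, and CXCL10 and OASL changed sign, to -0.15 and -0.04. Without H3.3-WT replicate 1, CXCL11 was at 1.51. IFITM2 ranged from -1.21 to -0.57 when each library was left out, XAF1 from -0.74 to -0.60 and IRF7 from -0.64 to -0.13. With same-numbered libraries as a replicate block, the median was 0.28 and 4 members were below 0, and 8 members had an unadjusted p under 0.05 in limma, against 2.27% of genes. Under it IFITM2 had -0.95, CXCL11 1.29, XAF1 -0.33, CXCL10 0.84 and OASL 0.97, and IRF7 changed sign, to 0.05.

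Between H3.3-G34W and EV, limma gave 0 members with an adjusted p under 0.05, against 0 of 16259 genes (0%), and 0 members with an unadjusted p under 0.05, against 317 genes (1.95%). The median log2 fold change was -0.24, with 35 of 40 members below 0, and -0.03 over all genes. Without H3.3-G34W replicate 1 it was 0.19, with 2 members below 0, and without H3.3-G34W replicate 2 it was -0.68, with 38 below 0. Members past the adjusted threshold stayed at 0 in every other setting of both comparisons with EV, in which leaving out each library in turn gave 0 to 4 genes for H3.3-WT and 0 to 1 for H3.3-G34W. IFITM2 and OAS2 were under EV in each mutant library (background 30.3%), and CXCL10 and CXCL11 were over it in each (background 28.1%). The fold change was -0.66 for IFITM2 (standard error 0.37), -0.59 for OAS2 (0.44), -0.51 for IFIT2 (0.56), 0.48 for CXCL11 (0.60), -0.48 for CMPK2 (0.49) and -0.47 for OAS3 (0.45). Without H3.3-G34W replicate 1 that of OAS2 was -0.03, of IFITM2 -0.46 and of CXCL11 0.72, and those of IFIT2, CMPK2 and OAS3 changed sign, to 0.11, 0.19 and 0.03. Rescaling the libraries as well put OAS3 at -0.04. Without H3.3-G34W replicate 2 that of OAS2 was -1.15. Under the replicate block the median of this comparison also changed sign, to 0.10, with 12 members below 0 and 1 at an unadjusted p under 0.05, against 1.69% of genes. Under it IFITM2 had -0.72, OAS2 -0.25, CXCL11 0.94, CMPK2 -0.03 and OAS3 -0.07, and IFIT2 changed sign, to 0.08.

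EV replicate 1 could be used only for members on chromosomes 10 and 11, where its genes had values on a larger scale. Over 1491 genes there, its values were 23.8 times those of EV replicate 2 in the median, and it was divided by this factor. The rescaled values were 10017 for IFIT1, 5207 for IFIT2, 13553 for IFIT3 and 3112 for IFIT5. They were 7383 for IFITM1, 1617 for IFITM2, 11084 for IFITM3 and 2636 for IRF7. Of these 8 members, 7 were below EV replicate 2, with a median log2 ratio of -0.55, and 7 were inside the range of the H3.3 libraries. IFIT1 was the exception and lay just under H3.3-G34W replicate 1. For IFITM2 the rescaled value lay inside the H3.3 range, whereas EV replicate 2 lay above it. STAT2 on chromosome 12, taken with the same factor after the data were seen, had 10971. The OAS genes, farther along chromosome 12, were listed at 0 in EV replicate 1.

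Of 21 interferon ligand genes, 9 were listed at 0 in all 5 libraries, among them IFNA1, IFNA8 and IFNW1. IFNB1 had 21.9 in EV, 33.9 and 45.9 in H3.3-WT, then 1.02 and 59.7 in H3.3-G34W. IFNL1 was at 2.50 in EV, at 16.7 and 22.6 in H3.3-WT and at 5.12 and 17.1 in H3.3-G34W. IFNB1 encodes interferon beta, and IFNL1 encodes interferon lambda, which acts through IFNLR1. IFNB1 was lowest in H3.3-G34W replicate 1 and highest in H3.3-G34W replicate 2. IFNL1 was instead lowest in EV and highest in H3.3-WT replicate 2. No detection floor was worked out for values this low. The values of IFNE were 8.12 (EV), 0 and 11.7 (H3.3-WT), and 15.4 and 4.55 (H3.3-G34W). The remaining ligands above 0 were IFNA2, IFNA4, IFNA5, IFNA7, IFNA13, IFNA17, IFNA21, IFNG and IFNL3, with at most 5.83 in any library. They were above 0 in a single library each, in which IFNA17 and IFNL3 had that value in H3.3-WT replicate 2, IFNA4 had 3.07 and IFNA2 1.54 in H3.3-G34W replicate 1, IFNA21 and IFNG had 2.22 and IFNA7 1.11 in H3.3-WT replicate 1, IFNA5 had 2.19 in H3.3-WT replicate 2 and IFNA13 had 1.14 in H3.3-G34W replicate 2.

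Receptors and kinases of the pathway were present in every library. IFNAR1 had 946 in EV, with 794 and 1173 for H3.3-WT against 1126 and 1185 for H3.3-G34W. IFNAR2 had 294 in EV, 338 and 391 in H3.3-WT, then 489.5 and 288 in H3.3-G34W. JAK1 was at 7988 in EV, at 8919 and 9897 in H3.3-WT and at 7318 and 9338 in H3.3-G34W. The receptor subunits were not lowest in H3.3-G34W replicate 1, while JAK1 was. The values of TYK2 were 4074 (EV), 3657 and 3782 (H3.3-WT), and 2327 and 3889 (H3.3-G34W). TYK2 was lowest in that library too. In each comparison 0 of the 15 receptor and JAK-STAT genes had an adjusted p under 0.05 in limma, with 0 at an unadjusted p under 0.05. The same counts held for the 19 tested of 22 sensing adaptors and kinases and, for adjusted p, for the 72 tested of 73 further interferon-induced genes, of which 0, 1 and 1 had an unadjusted p under 0.05 in H3.3-G34W against H3.3-WT, H3.3-WT against EV and H3.3-G34W against EV. Over all genes the unadjusted shares were 2.70%, 0.966% and 1.95% in the same order, and the adjusted share was 0% in each. H3.3-G34W replicate 1 was the lowest library for 60 of the 72 further genes and for 15 of the 19 adaptors and kinases. It was the lowest for 6 of the 15 receptor and JAK-STAT genes, and for 40.1% of all genes. The median difference between H3.3-G34W replicates 1 and 2 was -0.69, -0.79 and -0.24 in these lists, beside -0.99 for the members and -0.21 over all genes.

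Markers of other cells were read in the same libraries. In H3.3-G34W replicate 1, where the members were lowest, 12 genes of pluripotent cells summed to 66434, against 1142 in EV, 983 and 1058 in H3.3-WT and 955 in H3.3-G34W replicate 2; 1 further gene of this list, ESRG, was not matched. POU5F1 had 41.6 in EV, with 47.3 and 75.4 for H3.3-WT against 19441 and 65.7 for H3.3-G34W. DPPA4 had 36.4 in EV, 39.7 and 29.1 in H3.3-WT, then 6188 and 11.3 in H3.3-G34W. POU5F1 was the most abundant of the list in that library, and none of the 12 was at 0 there. The part of these genes in the low values of the members was not tested, and fewer cells of a type and less RNA per cell cannot be told apart in bulk samples. Osteoblast genes were read beside them: the median difference between H3.3-G34W replicates 1 and 2 was -0.38 over 10 tested genes, with 6 lower in replicate 1. COL1A2 was at 111335 in EV, at 98769 and 90034 in H3.3-WT and at 91016 and 138799 in H3.3-G34W. The values of SPARC were 72998 (EV), 76069 and 79359 (H3.3-WT), and 73806 and 85409 (H3.3-G34W). Both were lower in H3.3-G34W replicate 1 than in replicate 2, as were COL1A1, RUNX2, TWIST1 and BGLAP. ALPL, SPP1, PRRX1 and MSX2 went the other way, with 1216, 649, 380.2 and 28.4 in replicate 1 against 107, 377, 159 and 12.4 in replicate 2. BGLAP had 4.08 and 27.4. The late osteoblast genes SP7 and IBSP were under 10 in all 5 libraries, and IBSP was listed at 0 in 4 of them. Some markers of immune cells, which can also make interferon, were at or near 0. CD2, LILRA4 and TYROBP were listed at 0 in all 5 libraries, and CD3E, MS4A1 and NKG7 were at most 2.22. Others were not. A mean of at least 10 over the 5 libraries was reached by 6 of 9 monocyte and macrophage genes. It was reached by 3 of 9 lymphocyte and plasmacytoid dendritic cell genes. The 9 lymphocyte and plasmacytoid dendritic cell genes summed to between 35.3 and 85.2, with IL3RA the most abundant at up to 30.6, and the 9 monocyte and macrophage genes summed to between 1099 and 1462, most of it CD68, a lysosomal gene also expressed outside that lineage. The 6 endothelial genes summed to between 890.0 and 2350.5, led by TEK, which was lowest in H3.3-G34W replicate 2 at 782. Between the H3.3-G34W libraries, replicate 1 was the higher for all 5 tested endothelial genes, by a median of 0.88 on the log2 scale. KDR had 656 in replicate 1, where the members were lowest, against 26.6 to 78.3 in the other libraries. CLDN5 was also highest there, at 26.4. TEK, PECAM1 and VWF were lower there than in EV and H3.3-WT replicate 1, and TEK alone was also under H3.3-WT replicate 2. The tested endothelial genes had a median deviation from their means of 0.08 in the mutant line's replicate 1 and -0.88 in its replicate 2. The gap thus lay mainly in low values of replicate 2. The part of these endothelial genes in the result was not tested.

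**Figure D5:**
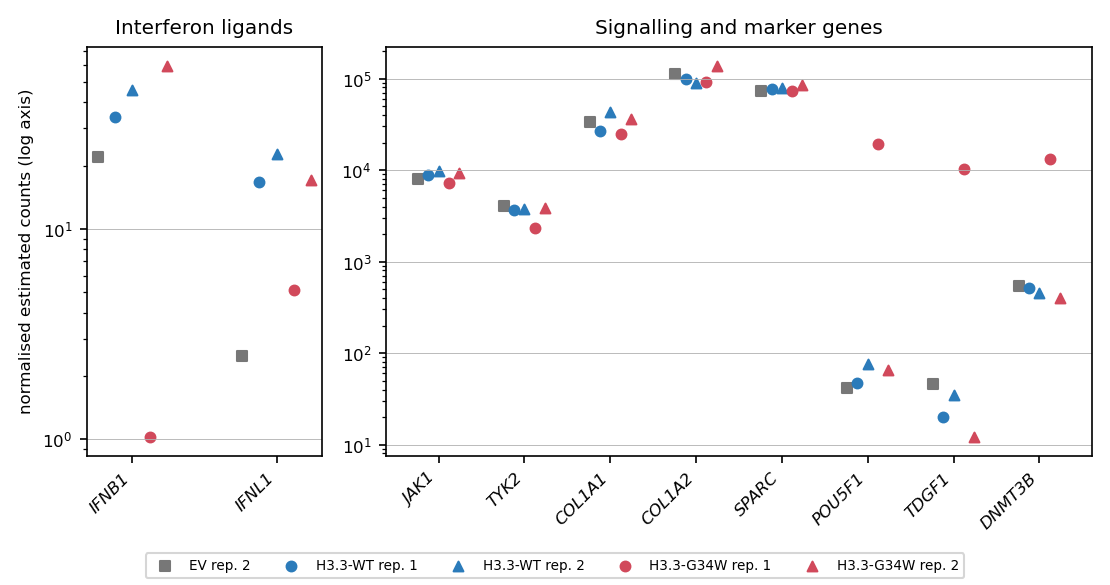
Normalised estimated counts (log axis) in 5 libraries of IFNB1 and IFNL1 (left) and of JAK1, TYK2, osteoblast genes and pluripotency genes (right); squares are EV, blue H3.3-WT, red H3.3-G34W, circles replicate 1 and triangles replicate 2. POU5F1, TDGF1 and DNMT3B are high in H3.3-G34W replicate 1, where IFNB1 is lowest but IFNL1 is not.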

How the data were processed

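The authors estimated counts with kallisto on Ensembl GRCh38 transcript models, summed them to genes through tximport and scaled the libraries in DESeq2. The deposited signal, a unit read from the values, is these normalised estimated counts. The values did not give back whole reads, so no count model was run and no depth or detection floor was worked out. The design had first allowed for counts.

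The members and lists were chosen with earlier results of these data known. Values were transformed as log2(value + 1), for genes with a mean of at least 10 over 5 libraries. They were fitted with limma 3.58.1 (R 4.3.3) as group means, with a variance trend, and adjusted by Benjamini-Hochberg over 16259 genes at a threshold of 0.05. The fit was tested on simulated data. There all genes were given the same dispersion (scatter beyond counting noise), and no library stood apart as H3.3-G34W replicate 1 does here. EV replicate 1 was left out. Values in every library are given for members with a mean of at least 1000, past the threshold, among the 6 largest absolute fold changes of a comparison, or above 0 in EV replicate 1 on chromosomes 10 to 12. The low chemokines enter by fold change. Promoters and positions are from RefSeq on GRCh38.p14, found by symbol. Transcript lengths are those of the Ensembl canonical transcript in an annotation on GRCh37, found by identifier for 16103 of the 16259 genes and all 40 members. Alternatives were another pseudocount (0.1), no filter, no variance trend, all 6 libraries, a replicate block, rescaled libraries and leaving out each library in turn. H3.3-G34W replicate 2 alone, the rescaled fit without H3.3-G34W replicate 1, and STAT2 in EV replicate 1 were added after the data were seen. Plots were drawn with matplotlib 3.10.9.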

Additional observations from a re-analysis of the deposited data

Results flagged for a closer look

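H3.3-G34W replicate 1 had a signal above the EV level in genes of pluripotent cells, which enter no comparison of the members: the 12 genes summed to 66434 there and to 1142 in EV replicate 2.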

How the results depend on the processing

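No member passed the threshold in any setting. Genes called were 0 in each comparison, and 1 each for H3.3-WT against EV and H3.3-G34W against EV with a pseudocount of 0.1. With all 6 libraries, where EV replicate 1 enters with its zeros, the member medians against EV were 5.07 for H3.3-WT and 4.97 for H3.3-G34W, and XAF1 (H3.3-WT, 1.25), OAS2 (5.96), CMPK2 (5.86) and OAS3 (6.73) against EV changed sign. With the replicate block the medians were -0.20 between the histone lines, 0.28 for H3.3-WT against EV and 0.10 for H3.3-G34W against EV, with 0 genes called in each and 715, 369 and 275 at an unadjusted p under 0.05 in limma (4, 8 and 1 of them members). Under it IRF7 in H3.3-WT (0.054) and IFIT2 in H3.3-G34W (0.076) against EV changed sign. Nothing states that same-numbered libraries were handled together. Their deviations correlated at 0.0945 across 16259 genes and at 0.132 over the 40 members, and replicate 2 was above replicate 1 in both histone lines for 35 members, against 40.8% of all genes. Unadjusted counts were 791, 917 and 1017 with no filter, 486, 377 and 446 without the variance trend, 13, 40 and 76 with all 6 libraries, and 423, 179 and 329 after rescaling. Rescaling gave medians of -0.14, -0.07 and -0.20. Leaving out each library in turn, genes called ranged from 0 to 6, 0 to 4 and 0 to 1, and the medians from -0.70 to 0.27, -0.30 to 0.17 and -0.68 to 0.19, in the same order. Fold changes that changed sign ranged from -0.19 to 1.01 for XAF1 (between the histone lines), from -0.15 to 1.15 for CXCL10 and -0.044 to 0.96 for OASL (H3.3-WT against EV), and from -1.14 to 0.11 for IFIT2, -1.14 to 0.19 for CMPK2 and -0.97 to 0.026 for OAS3 (H3.3-G34W against EV). Without H3.3-G34W replicate 1 and with rescaling, chosen after the data were seen, the median against H3.3-WT was 0.24, and IFIT2, CMPK2 and OAS3 against EV had 0.051, 0.13 and -0.035, so that OAS3 kept its sign there. Their causes were not tested. Rescaled EV replicate 1 put the EV level at 10017 for IFIT1, 3112 for IFIT5, 7383 for IFITM1 and 1617 for IFITM2.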
